A study of Homo sapiens with 4 samples.

Results

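The genes described here are 37 genes of protein folding and quality control in the endoplasmic reticulum (ER), with the sensors and transcription factors of the XBP1 and ATF6 arms of the unfolded protein response. They were selected by symbol and NCBI Gene ID from 18882 gene IDs, with earlier results of these data known, and all 37 were present in the files. Their RNA was compared between control and NRP-1 cells of BT-474, with 2 libraries per group. BT-474 is a cultured human breast cancer line, labelled luminal B-like, with amplified ERBB2. The control libraries (replicates 1 and 2) came from cells labelled wild-type. The NRP-1 libraries (replicates 2 and 3) came from cells with a stably transfected pPTuner IRES2 plasmid expressing NRP-1, a co-receptor for semaphorins and VEGF. Both were grown in RPMI-1640 with serum, and the NRP-1 cells were isolated as colonies and selected with Geneticin. The number of clones behind the NRP-1 libraries is not given in the sources used here. Because the sequenced controls were labelled wild-type and not empty vector, NRP-1 itself, transfection, drug selection and clone isolation cannot be told apart. No source states that the libraries of a group came from separate cultures. The p-values therefore set group differences only against the spread between these samples, which may be technical.

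The ER folds and glycosylates proteins bound for the membrane and the exterior. HSPA5 (BiP) and other chaperones hold unfolded chains, lectin chaperones bind their sugars, and disulphide isomerases with ERO1 oxidases form their disulphide bonds. Chains that fail to fold are exported to the cytosol and degraded (ER-associated degradation, ERAD). When unfolded protein accumulates, IRE1 (the product of ERN1) splices XBP1 mRNA, ATF6 is cleaved to release a transcription factor, and PERK slows translation and favours ATF4 and CHOP. XBP1 and ATF6 raise chaperone and ERAD genes through short promoter elements, and ATF6 acts on the ER stress response element (ERSE) together with NF-Y. Luminal breast cells express XBP1 at high levels.

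The promoter elements are shown first because ATF6 and XBP1 act through elements of this kind. RefSeq promoter windows of GRCh38.p14, 300 bases with 250 before the annotated start, were held for 34 of the 37 genes, all but PDIA3, DERL1 and DERL3. The windows were searched on both strands for the ERSE, which is CCAAT and CCACG separated by 9 bases. Of the 34 genes, 8 carried an ERSE (23.5%), namely HSPA5, HSP90B1, CALR, CANX, PDIA6, ERO1B, CRELD2 and XBP1. Among all 27305 genes with a window the number was 25 (0.0916%). The 37 genes were chosen around the XBP1 and ATF6 arms, which act through such elements, so these shares are a description and no test. In the sequences below, read 5′ to 3′ on the strand of the gene with 5 flanking bases, capitals mark the fixed letters of the element. In GENCODE 29 the HSP90B1 element overlaps an annotated exon, and the other elements printed lie outside exons. An ERSE of CANX and a second ERSE of HSP90B1, which are not printed, also overlap annotated exons. In CALR, ERO1B and CRELD2 the element lies on the opposite strand and reads CGTGG, then ATTGG.
HSPA5 ERSE (chr9:125241386-125241414, minus strand): cttcaCCAATcggcggcctCCACGacggg
HSP90B1 ERSE (chr12:103930211-103930239, plus strand): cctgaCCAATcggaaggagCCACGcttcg
PDIA6 ERSE (chr2:10812848-10812876, minus strand): ccggaCCAATgagccgcagCCACGgcttg
CALR ERSE (chr19:12938379-12938407, plus strand): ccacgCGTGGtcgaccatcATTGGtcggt
ERO1B ERSE (chr1:236282178-236282206, minus strand): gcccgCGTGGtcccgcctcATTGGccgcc
CRELD2 ERSE (chr22:49918549-49918577, plus strand): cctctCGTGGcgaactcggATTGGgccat
XBP1 ERSE (chr22:28800598-28800626, minus strand): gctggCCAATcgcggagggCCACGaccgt

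The related ERSE-II, ATTGG and CCACG separated by 1 base, was present in HYOU1, HERPUD1 and SDF2L1, which is 3 of 34 genes (8.82%) against 19 of all genes with a window (0.0696%). In HYOU1 and SDF2L1 it lies on the opposite strand and reads CGTGG, then CCAAT.
HYOU1 ERSE-II (chr11:119057269-119057289, minus strand): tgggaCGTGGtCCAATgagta
HERPUD1 ERSE-II (chr16:56932020-56932040, plus strand): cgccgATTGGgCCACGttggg
SDF2L1 ERSE-II (chr22:21642109-21642129, plus strand): ggaagCGTGGaCCAATcaaaa
The UPR element (TGACGTGG or TGACGTGA), a site of XBP1 and ATF6, was found in HYOU1 and DNAJC10, 5.88% of the 34 genes against 1.44% of all genes. In HYOU1 it overlapped a second ERSE-II. The ATF4 element TGATGCAA was found in HERPUD1 alone, 2.94% against 1.08%. A letter match describes a window and was not tested as a binding site, and the shares here carry the same limit as that of the ERSE.

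The libraries held between 8243595 and 8448926 expected counts, called reads after rounding, and 14298 genes with enough reads were tested. Reads of NRP1 numbered 7 and 8 in control and 103 and 62 in NRP-1 libraries (log2 fold change 3.38, adjusted p = 0.044 by the quasi-likelihood test of edgeR, Benjamini-Hochberg over all genes). All 10 luminal epithelial markers were detected in every library, with summed FPKM of 4489.67 and 4491.07 in control and 5546.43 and 4821.55 in NRP-1 libraries. The lowest p among them were those of GATA3 (184 and 186 reads in control, 688 and 289 in NRP-1 libraries) and EPCAM (2291 and 2420 against 2010 and 1953). ESR1 had 395 and 437 reads in control against 273 and 735, and PGR had 702 and 717 against 419 and 1138. Both lay below the controls in NRP-1 replicate 2 and above them in NRP-1 replicate 3. Of 8 fibroblast markers only COL1A1 (1739 and 1740 reads against 1513 and 1357) exceeded 6 reads, and PDGFRB, DCN, FAP and THY1 were at 0. The leukocyte markers CD3E and CD14 were at 0, LYZ had 575 and 520 reads in control against 522 and 558, and PTPRC had 15 and 10 against 9 and 17, whereas CD68 fell from 320 and 281 reads to 107 and 89 (adjusted p = 0.0423 by edgeR), and the summed leukocyte FPKM was 61.44 to 68.78 in control and 49.71 to 51.29 in NRP-1 libraries. Of 6 endothelial markers TEK was at 0, PECAM1 had 36 and 53 reads against 52 and 47, VWF had 9 and 20 against 47 and 49, and the summed FPKM lay between 0.91 and 2.17. The part of these markers in the results below was not tested. The control libraries differed little from each other (biological coefficient of variation 0.0641) and the NRP-1 libraries more (0.225). In bulk RNA, fewer cells expressing a gene and less RNA per cell cannot be told apart.

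The question asked of the 37 genes was whether their RNA differed between BT-474 NRP-1 and control cells. The chaperones and disulphide isomerases were lower in both NRP-1 libraries, whereas DERL1, DERL2, SELENOS, SEC61B and XBP1 had log2 fold changes between 0.01 and 0.10. DERL3 had 10 and 2 reads in control and 3 and 2 in NRP-1 libraries and was not tested, which left 36 genes. Of these, 31 had a negative fold change, where 6897 of all 14298 genes tested did so. The median log2 fold change was -0.69 against 0.02 over all genes. The HSP70 and HSP90 group had a median of -0.89, oxidative folding genes -0.84, and the ERAD genes -0.22. A single gene, HERPUD1, passed an adjusted p of 0.05. The genes together took 1.99% and 2.03% of all counts in control replicates 1 and 2, 1.37% in NRP-1 replicate 2 and 0.969% in NRP-1 replicate 3.

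By edgeR's quasi-likelihood test, with p-values adjusted over all genes, 1 of the 36 genes was lower and 0 were higher at an adjusted p under 0.05, where 0.678% of all genes were lower and 0.413% higher. At an unadjusted p under 0.05, 23 were lower and 0 higher, against 12.1% and 10.8% of all genes. In 28 genes both NRP-1 libraries lay below both controls, where 28.3% of all genes did so. In 0 genes did both lie above, where 27.9% of all genes did so, and 8 genes overlapped. DESeq2 called 19 of the genes lower and 0 higher, against 3.89% and 2.78% of all genes. The number of genes called depended on single libraries. It was 0 when either control replicate 1 or control replicate 2 was omitted, 31 when NRP-1 replicate 2 was omitted and 23 when NRP-1 replicate 3 was omitted. The share of all genes called lower in these fits was 0%, 0%, 18.3% and 14.7%. At an unadjusted p under 0.05 the count was 9, 9, 31 and 25, against 3.34%, 4.98%, 22.1% and 19.1% of all genes. A fit with a lone library in a group assumes that it varies like the other group.

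**Figure D1:**
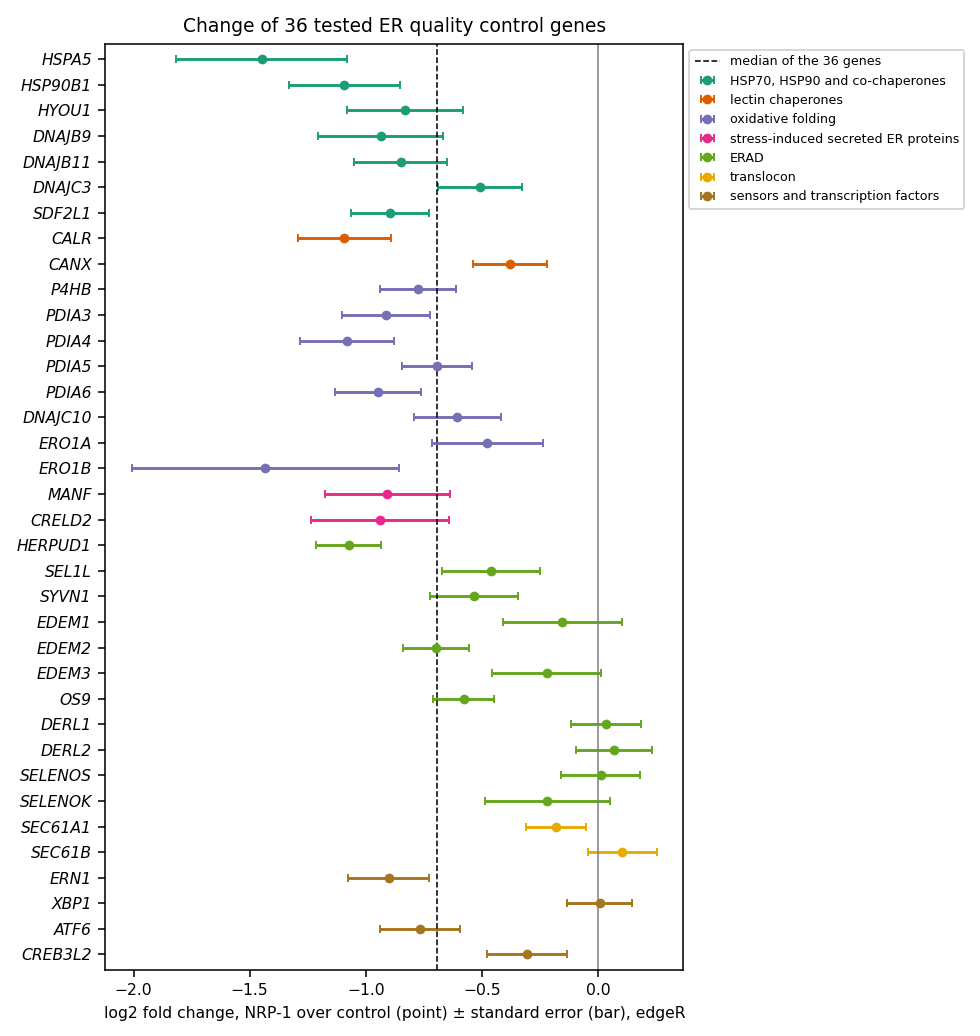
Log2 fold change (NRP-1 over control, x axis) of each of the 36 tested genes with its standard error as a bar, coloured by role, from edgeR on 2 libraries per group. The 7 HSP70 and HSP90 group genes lie left of zero, while DERL1, DERL2, SELENOS, SEC61B and XBP1 lie just right of it, and the dashed line marks the median of -0.69.

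HSPA5, the HSP70 of the ER lumen and the chaperone that keeps the stress sensors inactive, had, with ERO1B, the most negative fold change of the 36 genes in the edgeR fit over all 4 libraries. HSPA5 had 36776 and 36285 reads in control replicates 1 and 2, 19350 in NRP-1 replicate 2 and 8537 in NRP-1 replicate 3. The controls were nearly equal and both NRP-1 libraries lay below them, with replicate 3 far below replicate 2. Mean HSPA5 abundance was 4473 ± 81.6 CPM (SD, n = 2) in control and 1639 ± 900 CPM (SD, n = 2) in NRP-1 cells. The fitted log2 fold change was -1.45 with a standard error of 0.37 (adjusted p = 0.0975 by edgeR), and of -2.17 to -0.97 when single libraries were omitted. Its share of all counts was 0.446% and 0.437% in control against 0.231% and 0.101% in NRP-1 libraries. By FPKM it ranked 40 and 36 among all genes in control libraries, 75 in NRP-1 replicate 2 and 226 in NRP-1 replicate 3.

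HSP90B1 (GRP94), the HSP90 of the ER, had 11616 and 12065 reads in control and 7160 and 4404 in NRP-1 libraries. Its fitted log2 fold change was -1.09 with a standard error of 0.24 (adjusted p = 0.0789 by edgeR). HYOU1 (GRP170), a nucleotide exchange factor for HSPA5, had 3300 and 4037 reads in control and 2672 and 1622 in NRP-1 libraries. Both genes had the lowest value in NRP-1 replicate 3 and no overlap between groups. The J-domain co-chaperones followed the same order of libraries. DNAJB9 (ERdj4), which binds misfolded chains and IRE1, had 379 and 426 reads in control against 278 and 160. DNAJB11 (ERdj3), a partner of HSPA5 in folding, had 1053 and 1255 against 783 and 550. DNAJC3 (p58IPK), which also inhibits PERK, had 1138 and 1333 against 1039 and 770. Of these, DNAJC3 had the smallest difference, with a log2 fold change of -0.51, while DNAJB9 and DNAJB11 had -0.94 and -0.85. SDF2L1, which forms a complex with DNAJB11, differed in its pattern, since its NRP-1 libraries were alike at 157 and 147 reads against 253 and 290 in control (log2 fold change -0.89, standard error 0.17, adjusted p = 0.0678 by edgeR). In this group all 7 genes passed an unadjusted p of 0.05 and 0 passed an adjusted one. DESeq2 called 6 of them, all but DNAJC3.

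The 2 lectin chaperones, which bind monoglucosylated glycans, differed by unequal amounts. CALR (calreticulin), the soluble form, had 17040 and 18931 reads in control and 10331 and 7222 in NRP-1 libraries (log2 fold change -1.09, standard error 0.20, adjusted p = 0.064 by edgeR). CANX (calnexin), the membrane-bound form, had 12774 and 13014 reads in control and 11559 and 9101 in NRP-1 libraries (log2 fold change -0.38, standard error 0.16, adjusted p = 0.227 by edgeR). Both groups were separate in each gene. DESeq2 called CALR and not CANX, and the difference between the 2 genes was not itself tested.

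All 8 oxidative folding genes had lower reads in both NRP-1 libraries than in either control, and in each the lowest value was in replicate 3. P4HB, the protein disulphide isomerase that is also the beta subunit of prolyl 4-hydroxylase, had 21169 and 20139 reads in control and 14034 and 11114 in NRP-1 libraries (log2 fold change -0.78, standard error 0.16, adjusted p = 0.0747 by edgeR). PDIA3 (ERp57), the partner of the lectin chaperones, had 9371 and 8795 against 5870 and 4183. PDIA4 (ERp72) had 5562 and 6412 against 3481 and 2411. These differences were of like size, with log2 fold changes of -0.91 for PDIA3 and -1.08 for PDIA4. PDIA6 (P5), which also limits signalling by the stress sensors, had 4312 and 4092 reads against 2650 and 1890, and a log2 fold change of -0.95. PDIA5, a further isomerase, had 499 and 525 against 361 and 299, and a log2 fold change of -0.69. DNAJC10 (ERdj5), a reductase that opens disulphide bonds before degradation, had 3849 and 3826 against 3088 and 2165, and a log2 fold change of -0.61. The isomerases thus spanned -1.08 to -0.61, and their adjusted p-values by edgeR ran from 0.0663 for PDIA4 to 0.14 for DNAJC10.

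The oxidases that recharge the isomerases were less uniform. ERO1A had 702 and 658 reads in control, 633 in NRP-1 replicate 2 and 385 in NRP-1 replicate 3, a log2 fold change of -0.48 that did not pass an unadjusted p of 0.05. ERO1B was scarce and had 141 and 134 reads in control, 86 in NRP-1 replicate 2 and 20 in NRP-1 replicate 3. The fitted log2 fold change of ERO1B was -1.43 with a standard error of 0.58 (adjusted p = 0.213 by edgeR). Omitting NRP-1 replicate 2 gave -2.84 and omitting NRP-1 replicate 3 gave -0.73, the widest range of the 36 genes. DESeq2 called 5 of the 8 genes, P4HB, PDIA3, PDIA4, PDIA5 and PDIA6.

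MANF and CRELD2 are small ER proteins that are induced and secreted under stress. MANF had 881 and 885 reads in control and 631 and 350 in NRP-1 libraries, and CRELD2 had 1130 and 1334 against 877 and 461. The log2 fold changes were -0.91 and -0.94, with adjusted p-values of 0.128 and 0.144 by edgeR. For both, NRP-1 replicate 3 was much lower than replicate 2, and DESeq2 called both.

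The ERAD genes were split. HERPUD1 (Herp), a membrane protein that organises the HRD1 ligase complex, fell from 2646 and 2774 reads in control to 1468 and 1214 in NRP-1 libraries. The libraries of each group lay close together and the groups did not overlap, at 332 ± 8.18 CPM (SD, n = 2) against 158 ± 21.3 CPM (SD, n = 2). The fitted log2 fold change of HERPUD1 was -1.07 with a standard error of 0.14 (adjusted p = 0.044 by edgeR), with a range of -1.23 to -0.94 when single libraries were omitted. The adjusted p was 0.802 without control replicate 1 and 0.611 without control replicate 2, where the spread is taken from the NRP-1 libraries. By limma on log2(FPKM + 1) it was 0.0846, and without a filter on low counts in edgeR it was 0.109.

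EDEM2 trims mannose from glycans of misfolded chains, and OS9 is a lectin that reads the trimmed glycan. EDEM2 had 1333 and 1272 reads in control and 916 and 758 in NRP-1 libraries (log2 fold change -0.70, adjusted p = 0.0728 by edgeR). OS9 had 2775 and 2882 against 2126 and 1821 (log2 fold change -0.58, adjusted p = 0.0821 by edgeR). SYVN1 (HRD1), the ubiquitin ligase, had 2761 and 3085 against 2466 and 1735, with a log2 fold change of -0.54. The groups were separate in these 3 genes. SEL1L, the HRD1 adaptor, had 4132 and 4639 reads in control, 3992 in NRP-1 replicate 2 and 2652 in NRP-1 replicate 3 (log2 fold change -0.46), so that most of its difference lay in replicate 3.

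The other ERAD genes did not separate the groups. EDEM1 and EDEM3, relatives of EDEM2, had NRP-1 replicate 2 above and replicate 3 below both controls. EDEM1 had 777 and 858 reads in control against 967 and 564, and EDEM3 had 380 and 377 against 416 and 261. The log2 fold changes were -0.15 and -0.22, smaller than their standard errors of 0.25 and 0.23. SELENOK, a selenoprotein that binds the Derlins, had 152 and 182 reads in control against 184 and 115. DERL1 and DERL2, which form the channel for export to the cytosol, had 1164 and 1304 against 1461 and 1172, and 204 and 202 against 235 and 209. SELENOS (VIMP), which anchors the p97 ATPase to this channel, had 392 and 419 against 482 and 369. The log2 fold changes of these genes were 0.03 for DERL1 (standard error 0.15), 0.07 for DERL2 (0.16) and 0.01 for SELENOS (0.17). In all, 4 of the 11 tested ERAD genes were lower at an unadjusted p under 0.05, 1 at an adjusted p, and 3 by DESeq2.

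The translocon subunits, which pass new chains into the ER, were near control. SEC61A1, the channel, had 3587 and 3945 reads in control against 3651 and 3260, a log2 fold change of -0.18 (standard error 0.13). SEC61B had 347 and 364 against 431 and 365, a log2 fold change of 0.10 (standard error 0.15). Of these genes 0 passed an unadjusted p of 0.05, although the groups were separate for SEC61A1 after normalization.

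Among the sensors and transcription factors, ERN1 and ATF6 were lower, whereas XBP1 mRNA lay at the control level. ERN1, which encodes the kinase and RNase IRE1α, had 204 and 223 reads in control and 121 and 117 in NRP-1 libraries (log2 fold change -0.90, standard error 0.17, adjusted p = 0.068 by edgeR). Its NRP-1 libraries were nearly equal, as for SDF2L1. ATF6, the membrane-tethered factor, had 1578 and 1595 reads in control against 1122 and 820 (log2 fold change -0.77, standard error 0.17, adjusted p = 0.0806 by edgeR). XBP1, the target of IRE1, had 8105 and 8749 reads in control and 8145 and 9496 in NRP-1 libraries. It was 1031 ± 46.7 CPM (SD, n = 2) in control and 1036 ± 111 CPM (SD, n = 2) in NRP-1 cells, with a log2 fold change of 0.01 (standard error 0.14). CREB3L2, a tethered factor of secretory cells related to ATF6, had 1544 and 1720 reads in control against 1580 and 1168, a log2 fold change of -0.31. DESeq2 called ERN1 and ATF6.

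**Figure D2:**
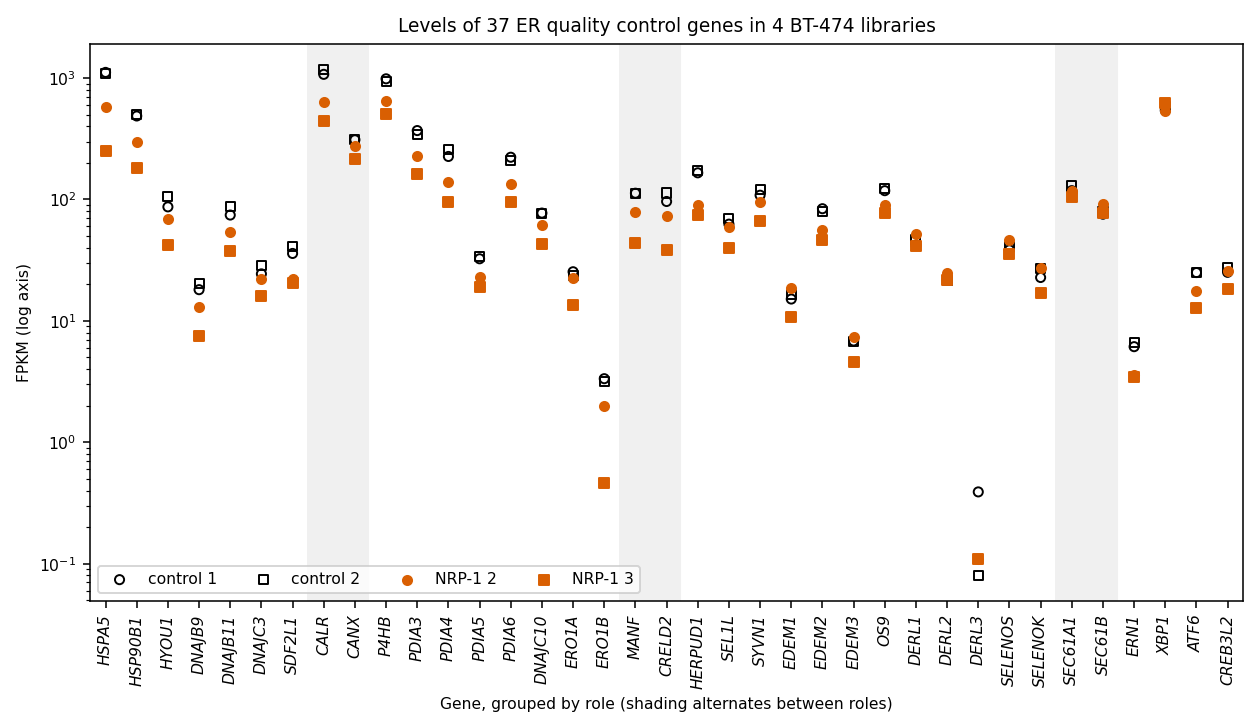
FPKM on a log axis (y) of all 37 genes (x, grouped by role) in each of the 4 libraries, with open symbols for control and filled symbols for NRP-1. The filled square of NRP-1 replicate 3 is the lowest point of HSPA5, CALR and P4HB, and the 4 points of XBP1 lie together between 535.8 and 620.13 FPKM.

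On the length-normalised FPKM scale, the genes covered a wide range of levels in control cells. CALR (1073.52 and 1183.93 FPKM) and HSPA5 (1114.01 and 1091.09 FPKM) were the highest and their ranges overlapped. P4HB followed with 986.17 and 931.32 FPKM. XBP1, at 541.89 and 580.72 FPKM, was the most abundant of the sensors and transcription factors and exceeded HSP90B1, at 487.27 and 502.41 FPKM. PDIA3 and CANX came next, with means of 357 and 312 FPKM. ERN1 (6.13 and 6.65 FPKM) and ERO1B (3.34 and 3.15 FPKM) were the lowest above DERL3 (0.39 and 0.08 FPKM). In 14 of the 36 pairs of neighbours in this order the control values overlapped, among them the run from SEC61A1 through OS9, SYVN1, MANF and CRELD2 to HYOU1. In NRP-1 replicate 3 the order at the top was changed, with XBP1 at 620.13 FPKM above P4HB at 505.73, CALR at 444.42 and HSPA5 at 252.6 FPKM.

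The NRP-1 libraries differed in the size of the difference from control. Relative to the control mean, the median log2 ratio of the 36 genes was -0.53 in NRP-1 replicate 2 and -0.88 in NRP-1 replicate 3. In 35 of the 36 genes (97.2%) replicate 3 lay below replicate 2, compared with 51.0% of all genes tested. XBP1 was the exception. In the lists of related ER genes given below, this share ran from 35.3% in other oxidative folding genes to 90.9% in oligosaccharyltransferase genes. It was 85.0% in the COPII genes. HSPA5 had log2 ratios of -0.98 and -2.16, ERO1B -0.74 and -2.84, and CRELD2 -0.55 and -1.48. The ratios were nearly equal for ERN1 (-0.88 and -0.93) and SDF2L1 (-0.85 and -0.94). The fold changes given above average 1 library with a moderate difference and 1 with a larger difference.

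**Figure D3:**
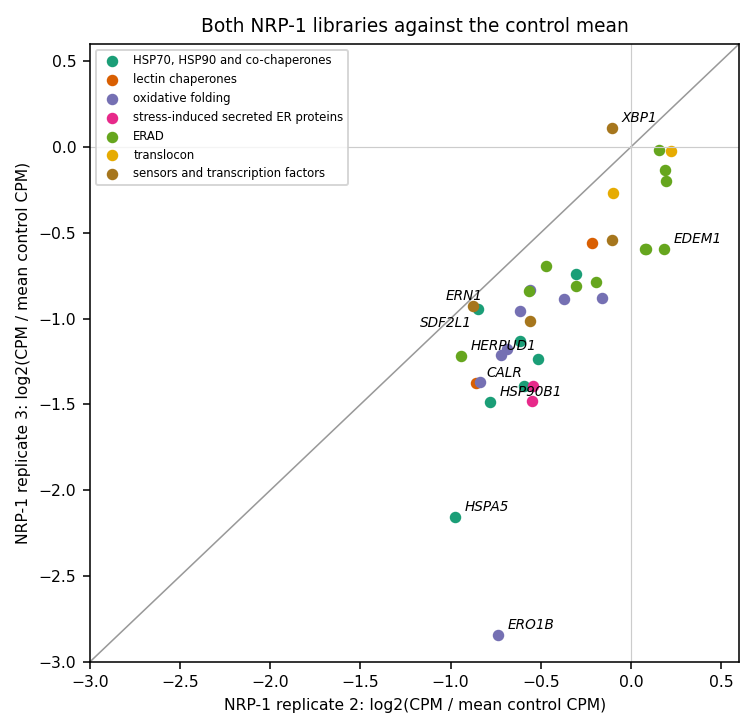
Log2 ratio to the mean control CPM in NRP-1 replicate 2 (x axis) and NRP-1 replicate 3 (y axis), 1 point per tested gene, coloured by role. All points but XBP1 lie below the diagonal of equal ratios, with HSPA5 at -0.98 and -2.16 and ERN1 and SDF2L1 close to the line.

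The promoter elements were set against the fold changes. Among all 14298 genes tested, 6897 had a negative fold change. At an unadjusted p under 0.05 by edgeR, 12.1% of all genes were lower and 10.8% higher, and the counts below are to be read beside these shares. Of the 11 genes with an ERSE or ERSE-II, 10 had a negative fold change, 9 were lower at an unadjusted p under 0.05, and the median log2 fold change was -0.95. The exception in direction was XBP1, with its ERSE at bases -52 to -34 from the start and a log2 fold change of 0.01, and CANX was the other gene that missed the unadjusted threshold. The 23 genes with a window and neither element had a median of -0.54, and 13 were lower at an unadjusted p under 0.05. Both medians are descriptions without a test. Outside the 37 genes, 33 genes carried one of the elements, 19 of them were tested, and their median was -0.11, with 2 lower and 2 higher at an unadjusted p under 0.05. The gene with the most negative value among these, FICD, encodes the enzyme that AMPylates HSPA5 and was chosen after its values were seen. FICD had 75 and 73 reads in control and 43 and 17 in NRP-1 libraries (log2 fold change -1.36, adjusted p = 0.147 by edgeR), with the lowest value again in replicate 3. Of the 19 genes, 1 passed an adjusted p of 0.05 in edgeR, and it was higher. This was PLS3, with 91 and 101 reads in control and 384 and 484 in NRP-1 libraries (log2 fold change 2.12, adjusted p = 0.0345 by edgeR).

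Companion lists from neighbouring ER pathways are given by their counts and medians, beside 12.1% of all genes lower and 10.8% higher at an unadjusted p under 0.05, and the differences between lists were not tested. Of 29 other ERAD genes, 4 were lower and 1 higher at an unadjusted p under 0.05, and their median log2 fold change was -0.03. Those with the lowest p were ERLIN2, which targets IP3 receptors for degradation (1221 and 1072 reads in control, 892 and 641 in NRP-1 libraries), and UBE2G2, an E2 enzyme of ERAD (970 and 899 against 816 and 691). Of 17 other oxidative folding genes, 2 were lower and 1 higher, with a median of -0.11. In that list TMX4, a membrane thioredoxin, had 56 and 55 reads in control against 123 and 97, and ERP29, a PDI-like chaperone without an active cysteine pair, had 1851 and 1589 against 1241 and 1325. The COPII genes of ER export had 2 lower and 3 higher of 20, with a median of 0.04, and SEC23A (log2 fold change 0.72) and SEC16A (0.61) had the lowest p. In these lists 0 genes passed an adjusted p of 0.05 in edgeR, and DESeq2 called 2 COPII genes higher and 0 other genes.

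Lists of glycan handling and of entry into the ER had medians between -0.45 and -0.21. Of 11 genes of glycan quality control, 6 were lower and 1 higher at an unadjusted p under 0.05, and the median log2 fold change was -0.45, in a range from -2.32 to 0.70, with LMAN2, a cargo lectin, and MOGS, the first glucosidase, both at -0.64. Among 11 oligosaccharyltransferase genes 6 were lower and 0 higher, with a median of -0.41. The catalytic subunit STT3A (702 and 712 reads against 504 and 476) and DDOST (2446 and 2149 against 1657 and 1503) were separate between groups, with little difference between the NRP-1 libraries. Of 23 translocation and signal peptide genes 7 were lower and 0 higher, with a median of -0.22, led by SEC11A at -0.52 and SSR4 at -0.64. Of 17 other ER chaperones and prolyl isomerases 6 were lower and 0 higher, with a median of -0.21. The lowest p in that list were those of PPIB (cyclophilin B; 2503 and 2596 reads against 1757 and 1350) and CRELD1 (397 and 437 against 247 and 158). Again 0 genes of these lists passed an adjusted p of 0.05 in edgeR, while DESeq2 called 3, 1, 1 and 3 of them lower.

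The PERK, ATF4 and CHOP genes were listed for the third arm of the response. Whether PERK has a part in their change was not tested. Of 18 PERK, ATF4 and CHOP genes, 13 were lower and 0 higher at an unadjusted p under 0.05, 3 were lower at an adjusted p under 0.05, and the median log2 fold change was -1.13. DDIT3 (CHOP), the pro-apoptotic factor of this arm, fell from 2621 and 2693 reads to 623 and 555 (log2 fold change -2.23, adjusted p = 0.0171 by edgeR). SESN2, a stress-induced regulator of mTORC1, and SLC3A2, an amino acid transporter subunit, fell by 1.74 and 1.30 on the log2 scale (adjusted p = 0.0483 and 0.0345 by edgeR). In this list 44.4% of genes were lower in NRP-1 replicate 3 than in replicate 2, compared with 97.2% of the chaperone and ERAD genes. EIF2AK3, which encodes PERK, had 403 and 476 reads in control against 593 and 362 (log2 fold change 0.06, standard error 0.25). ATF4 mRNA had 5080 and 5289 against 2978 and 4777 (log2 fold change -0.48, standard error 0.23). Of 18 other sensors and factors 0 were lower and 3 higher at an unadjusted p under 0.05, with a median of 0.07, and GTF2I and CREB3L4 had log2 fold changes of 0.42 and 0.36. By an adjusted p under 0.05, edgeR and DESeq2 each called 0 of them.

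The files also give for each gene a transcript length weighted by isoform abundance, which moves when the mix of annotated isoforms moves. It varied between libraries in 14 of the 36 tested genes. DERL3, which was not tested, had 3115 bases in both controls and NRP-1 replicate 2 and 2134 bases in NRP-1 replicate 3. Its lengths rest on only 10 and 2 reads in control and 3 and 2 in NRP-1 libraries. In HYOU1, DNAJC10, OS9 and SELENOS both NRP-1 libraries had the shorter length, as in 17.8% of the 5521 genes whose length varied, and in PDIA5, CRELD2 and EDEM2 both had the longer one, as in 15.9%. Among the 14 genes the largest shift between group means was that of OS9, from 2836.86 and 2829.34 bases to 2790.10 and 2781.55 bases. The length of XBP1 was 1819.75 and 1819.59 bases in control and 1819.09 and 1819.81 in NRP-1 libraries, a span of 0.72 bases. Whether this length separates spliced from unspliced XBP1 was not tested, and XBP1 splicing was not measured here.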

How the data were processed

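RNA was sequenced in 2 BT-474 control and 2 BT-474 NRP-1 libraries. Per library, the authors deposited unnormalized expected counts of genes, not always whole (32.4% to 32.9% of values), FPKM values, normalized for length and mapped reads, and transcript lengths. The submitters' processing notes name bcl2fastq 2.16, Bowtie2 2.2.5, HISAT2 2.0.1 and RSEM, and both GRCh38 and hg19 without a role. Whether counting used strand is not given in the sources used here. A deposited table of the authors' comparison (fold ratios and a probability) was not used. Counts of HSPA5, HSP90B1, DNAJC3, PDIA3, ERO1A, EDEM1, ATF6 and CREB3L2 were not whole, so that some reads were split with other genes.

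After rounding of the expected counts, groups were compared in edgeR 4.0.16 under R 4.3.3 (filterByExpr, TMM factors of 0.986 to 1.014, glmQLFit and glmQLFTest, group as the only term), with Benjamini-Hochberg adjustment over 14298 genes. The standard error was the absolute log2 fold change over the square root of F. Groups were called separate when both NRP-1 CPM values lay on 1 side of both controls. Symbols were matched for 99.4% of gene IDs. Promoter windows were read from RefSeq (GRCh38.p14), and 30 of the 34 were found to read in the direction of the gene's own transcripts in GENCODE 29. Alternatives were DESeq2 1.42.0, log2(FPKM + 1) in limma 3.58.1 at a minimum mean FPKM of 0.5 or without a minimum, a pseudocount of 0.1 in its place, no TMM, median-of-ratios size factors, no count filter, and each library left out. The tests were checked on simulated data in which both groups had the same spread, unlike the control and NRP-1 libraries here. Figures were drawn with Python 3.11.15 and matplotlib 3.10.9. The members and lists were chosen with earlier results of these data known. Named genes were all 37, NRP1, EIF2AK3, ATF4 and DDIT3. Each companion or marker list gave its genes past an adjusted p of 0.05 (at most 4), or otherwise the 2 with the lowest p. FICD, PLS3 and further markers were named outside this rule.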

Additional observations from a re-analysis of the deposited data

How the results depend on the processing

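With main values of 1 gene called lower among the 36 and 156 among all genes in either direction, DESeq2 called 19 and 954. limma on log2(FPKM + 1) called 0 and 7, limma on log2(FPKM + 0.1) 0 and 3, limma without the FPKM filter 0 and 0, and edgeR on all genes with reads 0 and 0. At an unadjusted p under 0.05 these 4 fits had 21, 20, 19 and 22 of the genes lower, against 23. Over FPKM values 1 gene lay higher in both NRP-1 libraries, against 0. When single libraries were omitted, the number called lower was 0 to 31 (all genes 0 to 5414), the number at an unadjusted p under 0.05 was 9 to 31, the median log2 fold change was -0.89 to -0.54, and genes with separate groups numbered 28 to 34 lower and 0 to 6 higher, where 35% to 42.8% and 34.7% to 43.5% of all genes were separate. Signs turned for genes near zero. Without NRP-1 replicate 2 or without NRP-1 replicate 3, respectively, the log2 fold changes were -0.60 and 0.19 for EDEM1, -0.61 and 0.079 for EDEM3, -0.61 and 0.083 for SELENOK, -0.14 and 0.19 for DERL1, -0.21 and 0.19 for SELENOS, -0.027 and 0.15 for DERL2, -0.031 and 0.22 for SEC61B, and 0.10 and -0.11 for XBP1. Without control replicate 1 they were -0.04 for DERL1, -0.03 for SELENOS and -0.04 for XBP1. The cause was not tested. Of 252 single-gene fold changes under the alternatives that keep all libraries, 230 had the main direction and call, 18 passed the threshold under DESeq2 alone, and HERPUD1 lost its call in 4. No paired analysis was possible because the groups share only replicate number 2. With 2 libraries per group the NRP-1 spread limits what can be called, and DERL3 and ERO1B have few reads.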
